A study of Mus musculus with 6 samples.

Results

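The fibrillar collagens are the collagen chains that assemble into the banded fibrils of connective tissue, and their transcripts were followed here in immortalized murine embryonic fibroblasts (MEF). The 9 genes taken were Col1a1, Col1a2, Col2a1, Col3a1, Col5a1, Col5a2, Col5a3, Col11a1 and Col11a2, found as the non-control probes that carry these gene names on the array. They made up 9 of the 34797 gene names on it, and each was read by 1 probe with 1 spot. RNA was measured in wild-type (WT) MEF, labelled with the strain W4, in MEF lacking TIA1 (TIA1 KO), labelled BALB/c, and in MEF lacking TIAR, the product of Tial1 (TIAR KO), labelled C57BL/6. All 3 groups were immortalized fibroblasts with no further treatment given in the labels, and each was measured on 2 arrays of independent replicates. Because each genotype came with its own strain, the loss of a TIA protein, the strain and the history of the line cannot be told apart. The sources used here do not say whether a group was a single clone.

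Fibrillar procollagens are made as triple helices of 3 chains in the endoplasmic reticulum, trimmed of their propeptides outside the cell and then cross-linked. Type I and type III collagens form most fibrils of skin, tendon and other soft tissues, type V collagen joins them in small amounts and is needed to start a fibril, and types II and XI are the fibrillar collagens of cartilage. TIA1 and TIAR are RNA-binding proteins that act on the splicing, translation and decay of messenger RNAs. The comparison of each knockout with WT MEF asks which transcripts differ when either protein is missing.

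Values are the log2 signals of the authors' normalized table, and differences are log2 differences of group means with the standard error (SE) of limma. A gene was called changed at a Benjamini-Hochberg adjusted p under 0.05 over all 55681 probes together with a fold change above 2, the thresholds of the study. The scanner software rated 23569 and 26295 of the 55681 probes as well above background in WT, 24796 and 26011 in TIAR KO, and 16021 and 19996 in TIA1 KO MEF. The TIA1 KO arrays thus detected the fewest probes, and the median intensity of their spots was 458 and 218 against 119 to 152 on the other 4 arrays. Over all probes the replicates correlated with r = 0.9894 in WT, 0.9862 in TIAR KO and 0.9556 in TIA1 KO MEF. The TIA1 KO arrays also occupied a slide row of their own, so that row and genotype cannot be told apart.

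The knocked-out genes were read first. The brightest Tia1 probe gave 10.57 and 8.71 in WT, 9.75 and 9.77 in TIAR KO, and 7.52 and 8.38 in TIA1 KO MEF. It was lowest on both TIA1 KO arrays, but the WT arrays lay far apart and the difference of -1.69 ± 0.75 did not pass the test (adjusted p = 0.248). A further Tia1 probe differed by -1.87 (adjusted p = 0.150), and another by 1.10 in the opposite direction (adjusted p = 0.107), at 7.34 and 7.22 in WT and 8.15 and 8.61 in TIA1 KO MEF, without being well above background on a WT array. The brightest Tial1 probe gave 13.71 and 13.29 in WT, 14.20 and 13.77 in TIA1 KO, and 9.80 and 11.78 in TIAR KO MEF (difference from WT -2.71 ± 0.62, adjusted p = 0.0668). The other Tial1 probe was called lower in TIAR KO MEF, with 11.84 and 11.19 in WT against 10.23 and 9.86 (difference -1.47 ± 0.27, adjusted p = 0.0339). Whether these probes lie within the deleted parts of the genes is not given in the sources used here. Gapdh, a housekeeping gene with many near-identical copies, stayed between 18.55 and 18.82 on all 6 arrays.

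RefSeq promoter windows (build GRCm38.p6) were given for 6 of the 9 genes, Col1a2, Col3a1, Col5a1, Col5a3, Col11a1 and Col11a2. The 250 bases before the annotated start are shown for the 3 of them that were called higher in both knockouts, Col3a1, Col5a1 and Col5a3, and for Col1a2, the partner chain of Col1a1. Capitals mark matches on either strand to 4 short words. CCAAT and TATAAA are words common in front of many genes. GGGCGG is the word of the motif known for binding Sp1. CAGACA is of the kind known for binding Smad proteins. On the opposite strand these read ATTGG for the first, TTTATA for the second, CCGCCC for the third and TGTCTG for the last. No matches overlapped in these windows. They lie at chr6:4505368-4505617 on the plus strand for Col1a2, chr1:45311288-45311537 on the plus strand for Col3a1, chr2:27886175-27886424 on the plus strand for Col5a1 and chr9:20815068-20815317 on the minus strand for Col5a3.
Col1a2: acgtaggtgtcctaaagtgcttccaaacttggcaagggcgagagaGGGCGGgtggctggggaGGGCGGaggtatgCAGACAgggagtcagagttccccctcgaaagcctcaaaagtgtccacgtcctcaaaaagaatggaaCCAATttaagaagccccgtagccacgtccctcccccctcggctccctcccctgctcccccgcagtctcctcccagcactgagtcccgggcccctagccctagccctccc
Col3a1: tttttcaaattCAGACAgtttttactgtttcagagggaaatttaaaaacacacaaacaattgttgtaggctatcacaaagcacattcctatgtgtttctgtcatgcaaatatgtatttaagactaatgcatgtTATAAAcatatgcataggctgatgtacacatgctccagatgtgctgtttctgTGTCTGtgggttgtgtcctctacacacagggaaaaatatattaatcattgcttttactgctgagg
Col5a1: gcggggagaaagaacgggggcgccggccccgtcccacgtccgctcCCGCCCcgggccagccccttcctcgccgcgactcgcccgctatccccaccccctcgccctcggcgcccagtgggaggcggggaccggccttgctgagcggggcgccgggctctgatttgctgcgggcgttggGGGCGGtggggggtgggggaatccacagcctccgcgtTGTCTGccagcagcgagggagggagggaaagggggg
Col5a3: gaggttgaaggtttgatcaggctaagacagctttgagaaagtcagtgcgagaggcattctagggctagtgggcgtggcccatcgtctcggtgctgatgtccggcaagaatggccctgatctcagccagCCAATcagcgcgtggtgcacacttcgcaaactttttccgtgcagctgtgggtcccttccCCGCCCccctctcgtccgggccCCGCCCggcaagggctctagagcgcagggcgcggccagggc
These windows were not alike in base composition: the GC content was 62% in Col1a2, 76.4% in Col5a1 and 62.8% in Col5a3, but 35.2% in Col3a1. Col3a1 held TATAAA, 117 bases before the start, and 2 CAGACA words, but neither GGGCGG nor CCAAT. Col1a2 held 2 GGGCGG words, a CAGACA and a CCAAT, Col5a1 held 2 GGGCGG words and a CAGACA, and Col5a3 held 2 GGGCGG words and a CCAAT. Of the windows not shown, that of Col11a2, called in neither knockout, held TATAAA and GGGCGG, and that of Col11a1 held CCAAT and GGGCGG. Of all 32851 promoter windows of the same length, 33.8% held CCAAT, 12.4% TATAAA, 32.7% GGGCGG and 17.1% CAGACA. A match is a description of the letters and not a site of binding.

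Of the genes of type I and type III collagen, Col1a1 and Col3a1 were called higher in both knockouts and Col1a2 in TIAR KO MEF. Col1a1, the alpha chain present in every type I molecule (probe at chr11:94813115-94813174, build mm9 in the file headers), gave 15.42 and 15.26 in WT, 17.38 and 17.36 in TIA1 KO, and 17.63 and 17.76 in TIAR KO MEF. Every knockout array lay above both WT arrays, by 2.03 ± 0.15 in TIA1 KO (4.08-fold, adjusted p = 0.0247) and by 2.36 ± 0.16 in TIAR KO MEF (5.12-fold, adjusted p = 0.00125). Col1a2, its partner chain (chr6:4490619-4490678), gave 16.43 and 15.64 in WT, 18.69 and 18.38 in TIA1 KO, and 18.54 and 18.06 in TIAR KO MEF. The groups did not overlap with WT, and the rise of 2.27 ± 0.31 in TIAR KO MEF was called (4.81-fold, adjusted p = 0.0136). The difference of 2.50 ± 0.34 in TIA1 KO MEF was larger than 2-fold but did not pass the test (adjusted p = 0.0636). The WT arrays were further apart from each other than the arrays of either knockout.

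Col3a1, the chain of type III collagen (chr1:45405589-45405648), had the largest measured difference of the 9 genes against WT in both knockouts with the authors' values. In TIA1 KO MEF the difference of Col2a1 is a lower bound, so these genes cannot be ranked there. With the processed intensities scaled to the 75th percentile, Col2a1 differed by 7.22 and Col3a1 by 6.25 in TIA1 KO MEF. The Col3a1 probe gave 9.84 and 9.57 in WT, 15.71 and 15.76 in TIA1 KO, and 15.22 and 16.71 in TIAR KO MEF. All 4 knockout arrays were far above the WT arrays, and the TIAR KO arrays differed most between replicates. The rise was 6.03 ± 0.17 in TIA1 KO (65.3-fold, adjusted p = 0.00770) and 6.26 ± 0.48 in TIAR KO MEF (76.6-fold, adjusted p = 0.00167). Without TIAR KO replicate 1 the latter difference was 7.01 (adjusted p = 0.0536) and without TIAR KO replicate 2 it was 5.52 (adjusted p = 0.0446), and the call was also lost without either WT array (adjusted p = 0.0604 and 0.0611). Of all probes, 0.0557% had a larger rise in the TIA1 KO and 0.0359% in the TIAR KO. Before normalization its spot read 896 and 635 scanner units in WT MEF and from 35573 to 82610 on the 4 knockout arrays.

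**Figure D1:**
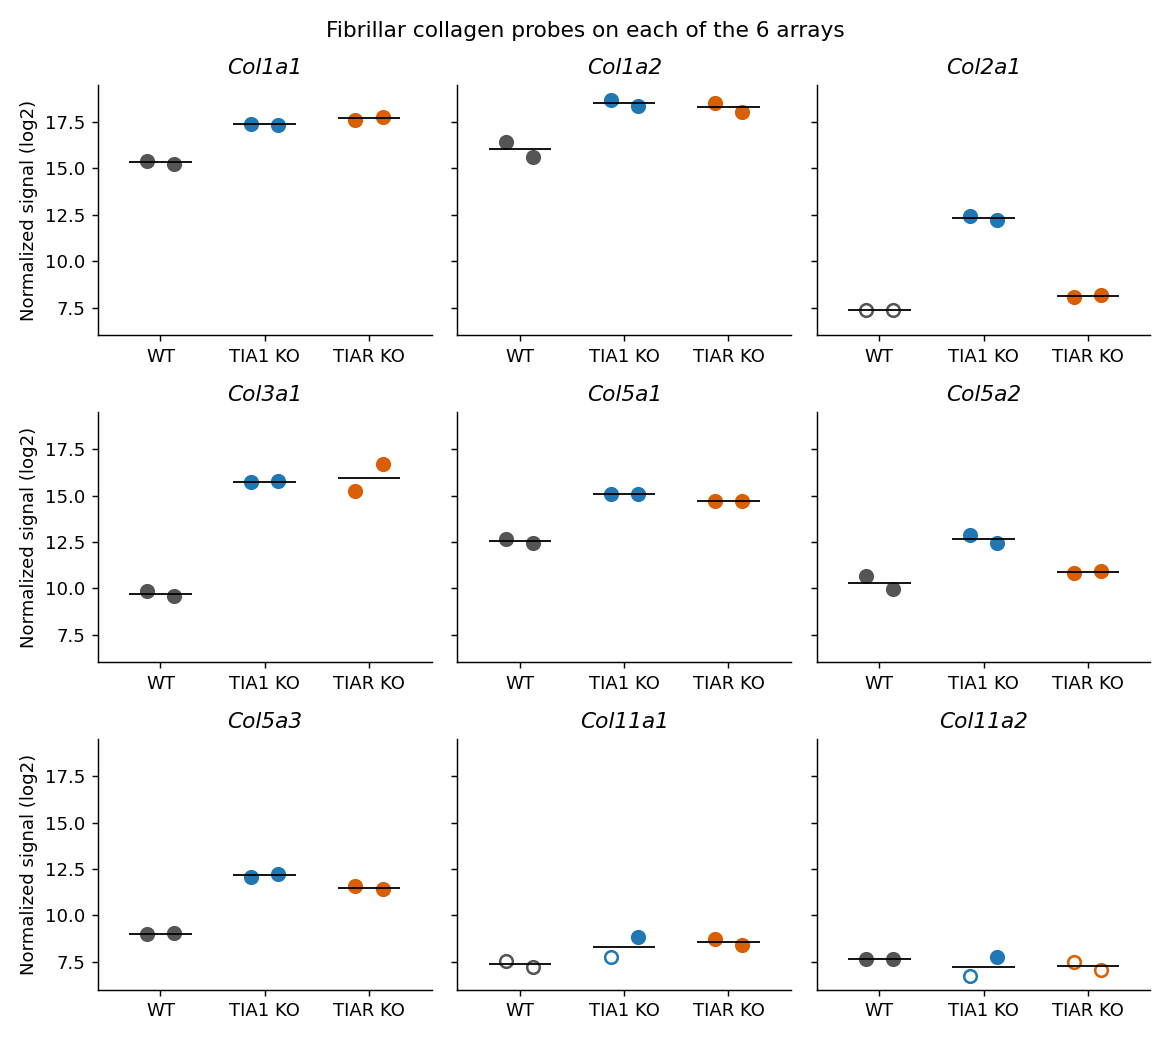
Normalized log2 signal of the probe of each fibrillar collagen (vertical axis, log2) on the 2 arrays of each group (horizontal axis); filled circles are spots well above background, open circles are not, and black lines are group means. Levels of different probes cannot be compared. Col3a1 moved from 9.84 and 9.57 in WT to between 15.22 and 16.71 in the knockouts, and Col2a1 stood high, at 12.46 and 12.23, in TIA1 KO MEF.

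Among the type V chains, 2 of 3 were called higher in both knockouts. Col5a1 (chr2:27892892-27892951), the chain common to type V molecules, gave 12.66 and 12.46 in WT, 15.08 and 15.11 in TIA1 KO, and 14.69 and 14.71 in TIAR KO MEF. The knockout arrays lay close to each other and well above WT. The rise was 2.54 ± 0.16 in TIA1 KO (5.80-fold, adjusted p = 0.0186) and 2.14 ± 0.16 in TIAR KO MEF (4.41-fold, adjusted p = 0.00169). Col5a3, a chain of a rarer type V form (chr9:20574592-20574651), gave 8.99 and 9.03 in WT, 12.08 and 12.26 in TIA1 KO, and 11.58 and 11.43 in TIAR KO MEF. It rose by 3.16 ± 0.16 in TIA1 KO (8.94-fold, adjusted p = 0.0130) and by 2.50 ± 0.16 in TIAR KO MEF (5.64-fold, adjusted p = 0.000957).

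Col5a2, the usual partner of Col5a1 in type V collagen (chr1:45431204-45431263), was called in neither knockout. It gave 10.64 and 9.95 in WT, 12.85 and 12.45 in TIA1 KO, and 10.81 and 10.93 in TIAR KO MEF. The TIAR KO arrays lay just above the higher WT array (difference 0.58 ± 0.26, 95% interval -0.07 to 1.22, adjusted p = 0.314). The TIA1 KO arrays lay well above WT, but the difference of 2.36 ± 0.32 did not pass the test (5.12-fold, adjusted p = 0.0644). Its probe lies 25.6 kilobases from that of Col3a1, on the opposite strand of the same chromosome, and in TIAR KO MEF the differences from WT of these neighbours were 0.58 and 6.26.

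Of the cartilage collagens, Col2a1 was high in TIA1 KO MEF. Col2a1, the chain of type II collagen (chr15:97806071-97806130), gave 7.39 and 7.34 in WT, neither well above background, 8.08 and 8.18 in TIAR KO, and 12.46 and 12.23 in TIA1 KO MEF. The 3 groups did not overlap, and the order was WT, TIAR KO and TIA1 KO. In the authors' values the TIA1 KO arrays were at least 31.6-fold above WT, as a lower bound because WT was not well above background (difference 4.98 ± 0.17, adjusted p = 0.00807). This difference was 4.04 with the scanner intensities scaled to a common median and 7.22 with the processed intensities scaled to the 75th percentile. The TIAR KO arrays were at least 1.70-fold above WT (difference 0.77 ± 0.16, adjusted p = 0.0465), which is under the fold threshold and was not called. It was called at 1.2 with a normexp offset of 16 run from the scanner values (adjusted p = 0.0276) and at 1.89 with the processed intensities scaled to the 75th percentile (adjusted p = 0.0443). In scanner units the Col2a1 spot read 157 and 145 in WT MEF, 213 and 188 on the TIAR KO arrays, and 4885 and 4558 on the TIA1 KO arrays, where the medians of the negative control spots were 196 and 119.

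The type XI chains, which set the width of cartilage fibrils, were near background. Col11a1 (chr3:113923185-113923244) gave 7.55 and 7.21 in WT, neither well above background, 8.73 and 8.40 in TIAR KO, and 7.77 and 8.85 in TIA1 KO MEF, where the higher of the arrays alone was well above background. It was called higher in TIAR KO MEF, at least 2.27-fold (difference 1.19 ± 0.21, adjusted p = 0.0289). This call was lost with all 3 groups fitted together (adjusted p = 0.242), with the fold itself tested and with any of the arrays left out, and the difference was 3.12 when the processed intensities were scaled to the 75th percentile. Its difference of 0.93 ± 0.43 in TIA1 KO MEF was not called (adjusted p = 0.260). That difference was 1.47 without TIA1 KO replicate 1, 0.39 without TIA1 KO replicate 2 and 4.04 with the processed intensities scaled to the 75th percentile. Col11a2 (chr17:34203113-34203172) gave 7.64 and 7.68 in WT, 7.48 and 7.06 in TIAR KO, and 6.75 and 7.74 in TIA1 KO MEF, and was well above background only on both WT arrays and the higher TIA1 KO array. On that TIA1 KO array the local background of the Col11a2 spot was 224 scanner units, against 44 to 54 on the other arrays. Col11a2 differed from WT by -0.42 ± 0.38 in TIA1 KO MEF (95% interval -1.50 to 0.67). In TIAR KO MEF it differed by -0.39 ± 0.20 (95% interval -0.88 to 0.10), and it was called in neither.

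**Figure D2:**
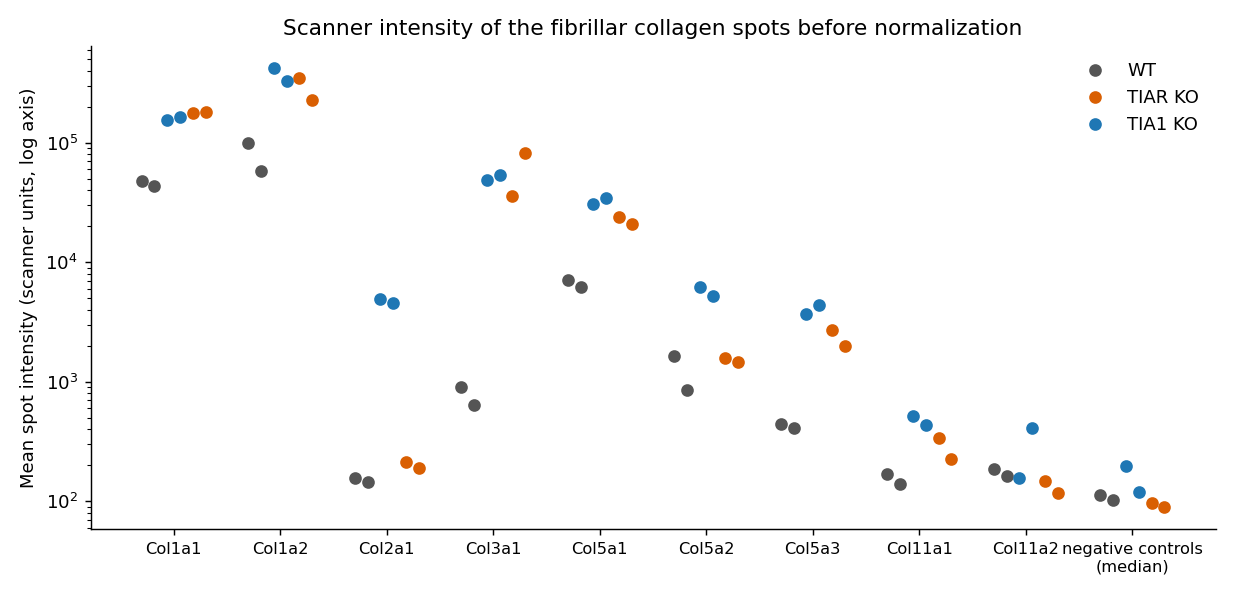
Mean intensity of each fibrillar collagen spot before any normalization (vertical axis, scanner units, log axis) on the 6 arrays, with the median of the negative control spots of each array at the right; grey points are WT, blue TIA1 KO and orange TIAR KO. Col1a1, Col1a2, Col3a1 and Col5a1 were far above the controls in the knockouts, whereas Col11a1 and Col11a2 and, outside TIA1 KO MEF, Col2a1 were within a few-fold of them.

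Counted over the 9 genes, 5 were called higher and 0 lower in TIA1 KO than in WT MEF (Col1a1, Col2a1, Col3a1, Col5a1 and Col5a3). Over all probes, 1.56% were called higher and 0.767% lower in that comparison. The groups did not overlap for 8 of 9 genes, beside 65.3% of all probes, so that count says little. The median difference of the 9 genes was 2.50, against -0.12 over all probes. The count rested on the arrays of WT and on the scaling. The differences of the 5 called genes stayed close to the reported ones without WT replicate 1 and without WT replicate 2. In that order, Col3a1 differed by 6.17 and 5.90, Col2a1 by 5.01 and 4.96, and Col5a3 by 3.14 and 3.18. Col5a1 differed by 2.64 and 2.44, and Col1a1 by 2.11 and 1.95. Without WT replicate 1 or without WT replicate 2 no gene was called (0 of all 55681 probes, although 7 of the 9 genes had an unadjusted limma p under 0.05 each time), without TIA1 KO replicate 1 the call was kept for 3 genes (Col2a1, Col3a1 and Col5a3), and without TIA1 KO replicate 2 it was made for 7. That last fit called 20% of all probes, against 2.32% with all arrays. Col1a2 and Col5a2 were called as well, giving 7 genes, with dim probes removed, with all 3 groups fitted together and with an intensity trend. In that order, these fits called 9.58%, 6.38% and 2.56% of the probes they tested. The processed intensities of the scanner were then scaled to the 75th percentile of each array instead. The median difference of all probes moved to 1.98 and no probe was called. An unadjusted limma p under 0.05 was reached by 9 of the 9 genes and by 27715 of all 55681 probes. Relative to that median, Col2a1 was then 5.23, Col3a1 4.27, Col11a1 2.06 and Col5a3 1.80 higher, but Col5a2 0.53, Col5a1 0.44, Col1a2 0.35, Col1a1 -0.07 and Col11a2 -0.26, so the rise of Col1a1 was not seen relative to the other probes under that scaling. The difference of Col1a1 from WT was itself 1.91 there. With the scanner intensities scaled to a common median, the difference from WT was 0.50 for Col1a1 (adjusted p = 0.418), 0.99 for Col1a2 (adjusted p = 0.122) and 0.99 for Col5a1 (adjusted p = 0.123), none of them called, where the median of all probes was -0.68. Relative to this median, Col1a1 was 1.18, Col1a2 1.67 and Col5a1 1.67 higher.

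In TIAR KO against WT MEF, 6 of the 9 genes were called higher and 0 lower (Col1a1, Col1a2, Col3a1, Col5a1, Col5a3 and Col11a1), where 3.32% of all probes were called higher and 2.33% lower. The groups did not overlap for 9 of 9 genes, Col11a2 being the gene that was lower, beside 47% of all probes. The median difference was 2.14, against -0.02 over all probes. The calls for Col1a1, Col5a1 and Col5a3 stood without either WT array, but without TIAR KO replicate 1 no probe was called (8 of the 9 genes had an unadjusted limma p under 0.05), and without TIAR KO replicate 2 the only call among the 9 genes was Col3a1. The comparisons of both knockouts with WT share the WT arrays and are therefore not independent of each other.

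**Figure D3:**
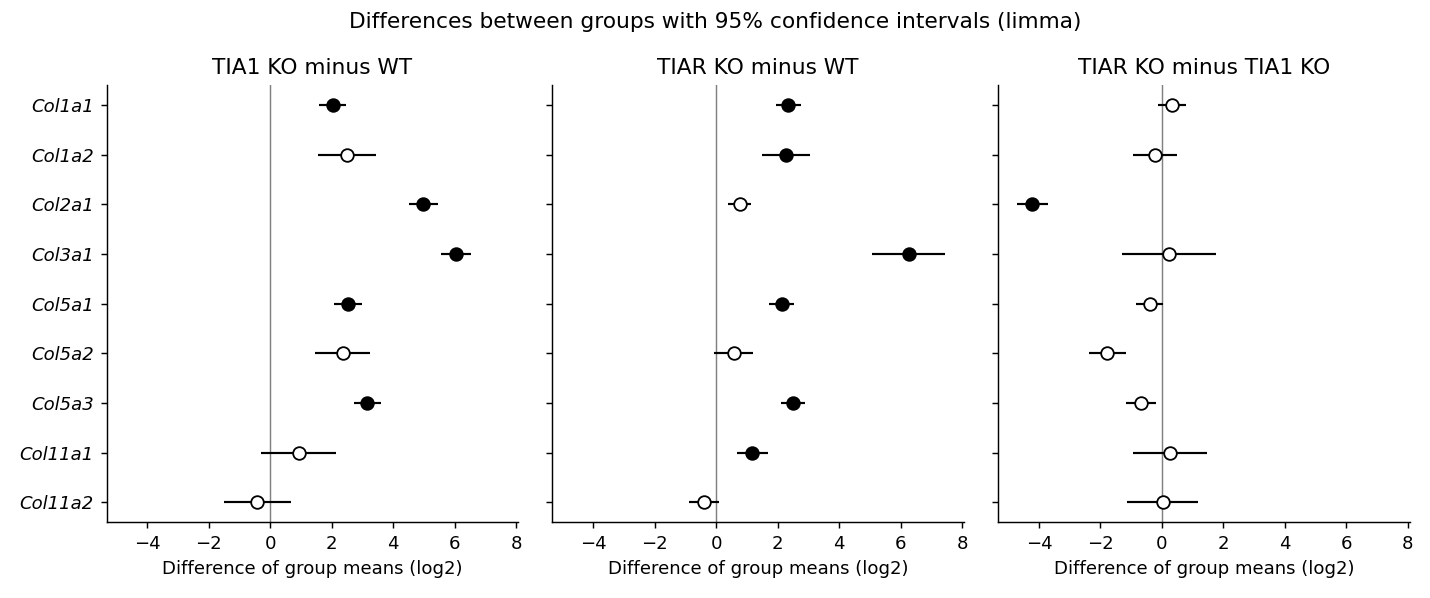
Difference of group means for each fibrillar collagen (horizontal axis, log2) in the 3 comparisons, with the 95% confidence interval of limma as a line; filled circles are called changes, open circles are not. Against WT, Col3a1 was at 6.03 and 6.26, while Col2a1 was at 4.98 in the TIA1 KO and 0.77 in the TIAR KO.

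The knockouts were also compared with each other, on arrays that do not include WT. Between TIAR KO and TIA1 KO MEF, Col2a1 was the only gene of the 9 that was called, 18.6-fold lower in TIAR KO MEF (difference -4.22 ± 0.18, adjusted p = 0.0117), while 1.07% of all probes were called higher and 1.2% lower. The groups did not overlap for 5 of the 9 genes, beside 60.3% of all probes, and the median difference was -0.24 against 0.10 over all probes. Col5a2 came next, 3.43-fold lower in TIAR KO MEF (difference -1.78 ± 0.21, 95% interval -2.38 to -1.18), and missed the threshold (adjusted p = 0.0516). For Col1a1 the difference was 0.33 (95% interval -0.12 to 0.77), for Col1a2 -0.24 (-0.95 to 0.48), for Col5a1 -0.40 (-0.83 to 0.04) and for Col5a3 -0.67 (-1.15 to -0.18), none of them called. For Col3a1 the interval was wide, from -1.31 to 1.77 around 0.23. With the scanner intensities scaled to a common median, where the median of all probes was 0.63, Col1a1 (1.41, adjusted p = 0.0359) and Col3a1 (1.35, adjusted p = 0.0479) were called higher in TIAR KO MEF beside the lower Col2a1. That fit called 6744 of all 55681 probes higher and 1017 lower. The Col2a1 call was lost without either TIAR KO array (0 calls over all probes, 3 and 2 of the 9 genes at an unadjusted limma p under 0.05).

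The other genes of the collagen pathway were read from 80 genes in 9 lists by role, each from its brightest probe. In TIA1 KO against WT MEF, 16 of the 80 were called higher and 1 lower, with a median difference of 0.59. Over all probes, 1.56% were called higher and 0.767% lower, with a median of -0.12. With the scanner intensities scaled to a common median, which moved the median of all probes to -0.68, 10 were called higher and 14 lower. In that fit 1749 of all 55681 probes were called higher and 13720 lower. TIAR KO MEF had 33 called higher and 2 lower against WT, with a median of 0.72. Of all probes, 3.32% were called higher and 2.33% lower there, with a median of -0.02. TIAR KO against TIA1 KO MEF gave 6 called higher and 5 lower, with a median of 0.05, and 24 and 1 under the common median. The common median called 6744 of all 55681 probes higher and 1017 lower in TIAR KO against TIA1 KO MEF. In the reported fit of that comparison 1.07% of all probes were called higher and 1.2% lower. These shares over all probes also apply to the counts of each list below. An unadjusted limma p under 0.05 was reached by 14468 of the 55681 probes in TIA1 KO against WT MEF. It was reached by 10790 in TIAR KO against WT MEF and by 11902 in TIAR KO against TIA1 KO MEF. The unadjusted counts of the pathway and marker lists below stand beside these. For TIA1 KO against WT MEF, 0 of them were called without either WT array, 9 when TIA1 KO replicate 1 and 31 when TIA1 KO replicate 2 was left out; for TIAR KO against WT MEF, 14 were called without either WT array, 0 without TIAR KO replicate 1 and 7 without TIAR KO replicate 2. The 31 came from the fit that called 20% of all probes. Where a called gene had further probes, these had the same sign in 7 of 7 genes for TIA1 KO and 13 of 14 for TIAR KO against WT, Mrc2 being the exception, and at least 1 further probe was itself called in 3 and 8 of them.

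Of the 2 other fibrillar collagens, Col27a1 was called higher in TIAR KO MEF, at least 4.11-fold (9 and 8.71 against 6.67 and 6.72 in WT, adjusted p = 0.00209), and neither gene was called in TIA1 KO MEF (1 of 2 at an unadjusted limma p under 0.05). Col24a1 was not well above background on any of the arrays.

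Among 15 genes of prolyl and lysyl modification, the steps that stabilize the triple helix and prepare cross-links, 3 were called higher in TIA1 KO and 4 higher and 1 lower in TIAR KO MEF. Leprel4, which encodes a partner of the prolyl 3-hydroxylases, was higher in both, at 14.47 and 14.52 in WT, 16.15 and 16.27 in TIA1 KO (rise 1.72, adjusted p = 0.0324), and 16.60 and 16.61 in TIAR KO MEF (rise 2.11, adjusted p = 0.00142). Leprel2 rose by 1.80 in TIA1 KO MEF (adjusted p = 0.0277) and differed by -1.82 in TIAR KO against TIA1 KO MEF (adjusted p = 0.0285). P4ha3, a prolyl 4-hydroxylase subunit, rose by 1.89 in TIAR KO MEF (adjusted p = 0.0182) and was at least 13.5-fold higher there than in TIA1 KO MEF (adjusted p = 0.0277), and Plod2, a lysyl hydroxylase, fell by 1.22 there (adjusted p = 0.0127).

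Of 9 genes of procollagen chaperones and export, 1 was called higher in the TIA1 KO and 4 in the TIAR KO. Creb3l1, a membrane-bound transcription factor that turns on secretory and collagen genes, gave 9.17 and 9.12 in WT, 13.98 and 14.07 in TIA1 KO, and 13.44 and 13.50 in TIAR KO MEF. It rose by 4.88 ± 0.15 (adjusted p = 0.00770) and by 4.33 ± 0.15 (adjusted p = 0.000203), and every knockout array lay far above both WT arrays. Fkbp14, a prolyl isomerase of the endoplasmic reticulum, rose by 2.39 in TIAR KO MEF (adjusted p = 0.00195), while its second probe differed by 0.72 and was not called. Serpinh1, the collagen-specific chaperone, differed from WT by 0.99 (adjusted p = 0.0835) and 0.96 (adjusted p = 0.0648) and was not called.

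Of 8 genes of the propeptidases and their enhancers, the 2 called higher against WT were the same in both knockouts, the procollagen N-propeptidases Adamts2 and Adamts14. Adamts2 gave 7.04 and 7 in WT, neither well above background, 11.17 and 10.63 in TIA1 KO (at least 14.7-fold, adjusted p = 0.0184), and 14.39 and 14.28 in TIAR KO MEF (at least 159-fold, adjusted p = 0.000166). Its second probe, well above background in a group, differed from WT by 0.47, not called, and by 2.12, called. TIAR KO MEF also stood above TIA1 KO MEF for Adamts2, by 3.44 (adjusted p = 0.0213). Adamts14 rose by 5.16 in TIA1 KO (adjusted p = 0.00770) and by 4.75 in TIAR KO MEF (adjusted p = 0.000181), while its second probe, which was not well above background on both arrays of any group, differed by 0.15 and 0.42 and was not called. Pcolce, the enhancer of C-propeptide removal, stayed between 18.01 and 18.69 on all arrays. Pcolce2, a related enhancer, gave 13.11 and 13.52 in WT, 13.38 and 13.20 in TIAR KO, and 11.48 and 11.07 in TIA1 KO MEF. It was called 4.04-fold higher in TIAR KO than in TIA1 KO MEF (adjusted p = 0.0444), and its difference of -2.04 in TIA1 KO against WT MEF was not called (adjusted p = 0.0572).

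Of 6 cross-linking enzymes, 2 were called higher in the TIA1 KO and 4 in the TIAR KO. Lox, the lysyl oxidase that cross-links fibrils, gave 10.38 and 10.20 in WT, 14.54 and 14.40 in TIA1 KO, and 12.44 and 12.22 in TIAR KO MEF. It rose by 4.18 ± 0.16 (adjusted p = 0.00990) and 2.04 ± 0.17 (adjusted p = 0.00248) against WT, and TIAR KO was below TIA1 KO MEF (difference -2.14, adjusted p = 0.0272). Its second probe gave differences of the same sign that were called in the 3 comparisons. Loxl1 rose by 2.20 in TIA1 KO (adjusted p = 0.0401) and 1.37 in TIAR KO MEF (adjusted p = 0.0178). Loxl2 rose by 3.34 in TIAR KO MEF (adjusted p = 0.000945), and its difference of 1.80 in TIA1 KO MEF was not called (adjusted p = 0.0532).

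Of 11 fibril-binding matrix genes, 3 were called higher in the TIA1 KO and 7 in the TIAR KO. Thbs2, a thrombospondin, gave 7.51 and 7.34 in WT, 12.99 and 12.76 in TIA1 KO, and 8.55 and 8.52 in TIAR KO MEF. It rose by 5.45 in TIA1 KO (adjusted p = 0.00795) and by 1.11 in TIAR KO MEF (adjusted p = 0.0156), and was lower in TIAR KO than in TIA1 KO MEF (difference -4.34, adjusted p = 0.0117). Dcn, the small proteoglycan decorin that coats collagen fibrils, had the knockouts in the opposite order, with 7.07 and 7.27 in WT, 8.48 and 9.35 in TIA1 KO, and 15.70 and 15.85 in TIAR KO MEF. It rose by 8.61 ± 0.17 in TIAR KO MEF (adjusted p = 0.000166), and was also higher there than in TIA1 KO MEF, by 6.86 (adjusted p = 0.0132). The Dcn spot was not well above background on WT replicate 1 or TIA1 KO replicate 1. No probe on the array had a larger measured rise in TIAR KO MEF, but rises from a WT signal near background are lower bounds and cannot be ranked. Fmod, the related fibromodulin, rose by 5.48 in TIAR KO MEF (adjusted p = 0.000203), and Bgn, biglycan, by 3.34 in TIA1 KO (adjusted p = 0.0229) and 1.84 in TIAR KO MEF (adjusted p = 0.0102). Lum, lumican, was not well above background on any array.

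**Figure D4:**
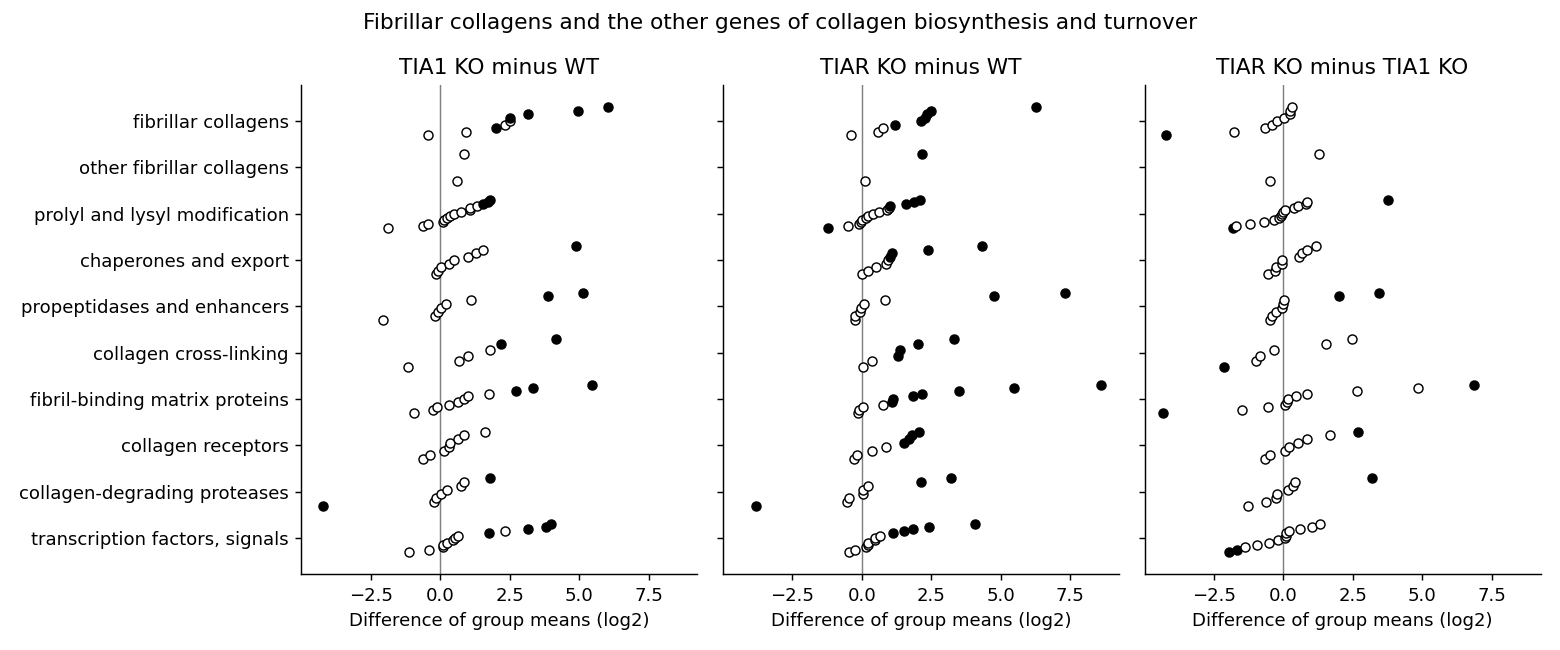
Difference of group means (horizontal axis, log2) for the fibrillar collagens and for the genes of each pathway list (rows, 1 circle a gene) in the 3 comparisons; filled circles are called changes. In TIAR KO against WT MEF 33 of the 80 pathway genes were called higher and 2 lower, and in TIA1 KO against WT MEF 16 and 1 (10 and 14 under the common-median scaling, which is not plotted). Over all probes, 3.32% were called higher and 2.33% lower in TIAR KO against WT MEF, and 1.56% and 0.767% in TIA1 KO against WT MEF. Under the common-median scaling, 1749 of all 55681 probes were called higher and 13720 lower in TIA1 KO against WT MEF.

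Of 8 collagen receptors, 0 were called in TIA1 KO MEF by limma (3 at an unadjusted p under 0.05) and 4 were called higher in TIAR KO MEF. Itga1, the integrin chain of a collagen receptor, rose by 2.08 in TIAR KO MEF (adjusted p = 0.00366), from 7.67 and 7.47 in WT to 9.84 and 9.46, and Ddr1, a collagen-binding receptor kinase, by 1.82 (adjusted p = 0.00448). Itga1 was also at least 6.48-fold higher in TIAR KO than in TIA1 KO MEF (adjusted p = 0.0315), while its second probe, which was not well above background on both arrays of any group, was called in no comparison. Of 8 collagen-degrading proteases, Mmp2, a gelatinase, was called lower in both knockouts and Mmp14, the membrane-bound collagenase that activates it, higher. Mmp2 gave 11.83 and 11.91 in WT, 7.25 and 8.07 in TIA1 KO (neither well above background, at least 18.5-fold lower, adjusted p = 0.0265), and 8.00 and 8.13 in TIAR KO MEF (difference -3.81, adjusted p = 0.000296). Mmp14 rose by 1.78 (adjusted p = 0.0329) and 2.13 (adjusted p = 0.00161). Mmp13, a collagenase, was called higher in TIAR KO MEF, at least 8.88-fold above WT (adjusted p = 0.000817) and at least 9.03-fold above TIA1 KO MEF (adjusted p = 0.0136).

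Of 13 transcription factors and signals of collagen genes, 4 were called higher in the TIA1 KO and 5 in the TIAR KO. Tgfb2 and Tgfb3, which encode TGF-beta ligands, were higher in both. Tgfb2 gave 8.47 and 8.72 in WT, 12.50 and 12.64 in TIA1 KO, and 12.72 and 12.60 in TIAR KO MEF, rises of 3.98 (adjusted p = 0.0110) and 4.07 (adjusted p = 0.000313), and its second probe was called in both. Tgfb3 rose by 3.82 in TIA1 KO (adjusted p = 0.0110) and by 2.44 in TIAR KO MEF (adjusted p = 0.00124). Tgfbr2, their receptor, was higher in TIA1 KO than in TIAR KO MEF, at 15.83 and 15.81 against 13.81 and 13.89 (difference of TIAR KO minus TIA1 KO -1.97, adjusted p = 0.0247). Ctgf, a matrix protein induced by TGF-beta, rose by 3.18 in TIA1 KO (adjusted p = 0.0204) and 1.51 in TIAR KO MEF (adjusted p = 0.00860), and was lower in TIAR KO than in TIA1 KO MEF (difference -1.67, adjusted p = 0.0437). Sox9, the transcription factor of cartilage that acts on Col2a1, gave 9.20 and 9.12 in WT, 9.40 and 9.34 in TIAR KO, and 7.70 and 8.42 in TIA1 KO MEF, the group in which Col2a1 was high, and was not called.

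The labelled cell type was set against marker genes. Of 9 fibroblast markers, 5 and 7 were rated well above background in the WT replicates, 8 and 8 in TIAR KO, and 6 and 7 in TIA1 KO MEF, and their mean log2 signal was 10.42 and 10.30, 13.52 and 13.43, and 11.75 and 11.73. Vim and S100a4, the brightest of the list, were above 17 on every array, whereas Thy1 gave 7.03 and 7.45 in WT, 6.87 and 7.18 in TIA1 KO and 14.83 and 14.79 in TIAR KO MEF, and Pdgfra was not well above background on a WT array. Of the fibroblast list, 2 of 9 were called higher in TIA1 KO (Pdgfra and Pdgfrb) and 5 of 9 in TIAR KO MEF. In TIA1 KO MEF the 7 others differed from WT by -0.22 (Thy1) to 2.34 (Prrx1). Of the myofibroblast and smooth muscle list, 2 of 4 and 3 of 4 were called higher. The brightest gene of the myofibroblast and smooth muscle list, Acta2, smooth muscle actin, gave 12.82 and 13.11 in WT, 17.69 and 17.73 in TIA1 KO, and 18.38 and 18.31 in TIAR KO MEF, and the mean of the list was 10.60 and 10.88, 13.12 and 12.82, and 13.73 and 13.69. Myh11, the myosin of mature smooth muscle, was not well above background on any array. The fibroblast list shares Dcn, Fap and Prrx1 with the pathway lists, the chondrocyte list shares Sox9 and Comp, and the osteoblast list shares Runx2 and Sp7. The part of these cell states in the collagen differences was not tested, and more cells of a kind and more RNA per cell cannot be told apart in bulk RNA.

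The chondrocyte list was read beside the high Col2a1 of TIA1 KO MEF. None of its 10 genes was called against WT in either knockout (2 in the TIA1 KO and 1 in the TIAR KO at an unadjusted limma p under 0.05), and 1 and 3 of them were well above background on the TIA1 KO arrays, against 2 and 5 in WT MEF. The mean of the list was 7.39 and 7.37 in WT, 7.47 and 7.53 in TIAR KO, and 7.33 and 7.45 in TIA1 KO MEF, with Sox9 its brightest gene. Acan and Comp, defining genes of cartilage matrix, were not well above background on a TIA1 KO array. Col9a1, a chain of the cartilage collagen type IX, gave 9.55, well above background, and 7.34 on the TIA1 KO arrays against 6.87 and 6.60 in WT (difference 1.71, adjusted p = 0.268). The differences of the list in TIA1 KO MEF ran from -1.10 (Sox9) to this value, with a median of -0.19. Col9a3 differed by 0.67, Matn1 by 0.45, Matn3 by 0.05, Acan by -0.18, Col10a1 by -0.21, Hapln1 by -0.25, Comp by -0.27 and Col9a2 by -0.80, none of them called. Of 6 osteoblast markers, Alpl, alkaline phosphatase, was called higher in TIAR KO MEF, and 0 were called in TIA1 KO MEF (2 at an unadjusted limma p under 0.05). Of 6 epithelial markers, 3 (Cdh1, Krt8 and Krt18) were called higher in TIAR KO MEF, where the mean of the list was 8.22 and 8.28 against 7.41 and 7.43 in WT, and 0 in TIA1 KO MEF (4 at an unadjusted limma p under 0.05). No gene of the 4 endothelial or 5 myeloid markers was called against WT (1 of each list at an unadjusted limma p under 0.05 in each knockout), and Cdh5 and Ptprc were not well above background on any array. Kdr, from 11.43 to 11.83, and Cd68, from 9.95 to 11.77, were so on all 6 arrays, and Csf1r, from 8.87 to 9.55, on 5 of 6.

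Across the 6 arrays the collagens followed each other to different degrees, measured as the root mean square difference of their log2 profiles after each was centred on its own mean. The closest pair was Col1a2 and Col5a1, at 0.25, followed by Col5a1 and Col5a3 at 0.27 and Col1a1 and Col5a1 at 0.30, while Col1a1 and Col1a2 were 0.36 apart. Col3a1 was at least 1.68 from every other collagen, and Col2a1 at least 1.21. The profiles were not scaled, so the distance counts the size of a change as well as its pattern. Col3a1 was higher in both knockouts like Col1a1, but by 6.03 and 6.26 in TIA1 KO and TIAR KO MEF against 2.03 and 2.36. Against 14002 other named genes well above background in a group, the profile nearest to Col3a1 was that of Arhgdib (0.45), followed by Tmem119 (0.51) and Lass4 (0.57). For Col2a1 it was Wnt5b (0.07), followed by 5730469M10Rik (0.18) and Igfbp5 (0.19). Wnt5b differed from WT by 5.01 in TIA1 KO and by 0.77 in TIAR KO MEF. The nearest to Col5a1 were Fn1 (0.09), which encodes fibronectin, Serpinb1a (0.14) and Fzd1 (0.16), and those to Col1a2 were Magohb (0.08), Prrx1 (0.22) and Col5a1. Col1a1 lay nearest to Diras2 (0.14), Unc5b (0.15) and Ttyh3 (0.15), Col5a3 to Pcdhb6 (0.12), Celsr1 (0.13) and Mgmt (0.13), and Col11a1 to Glul (0.08), Ptk2b (0.09) and Pth1r (0.13). These distances describe 6 arrays in 3 groups.

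**Figure D5:**
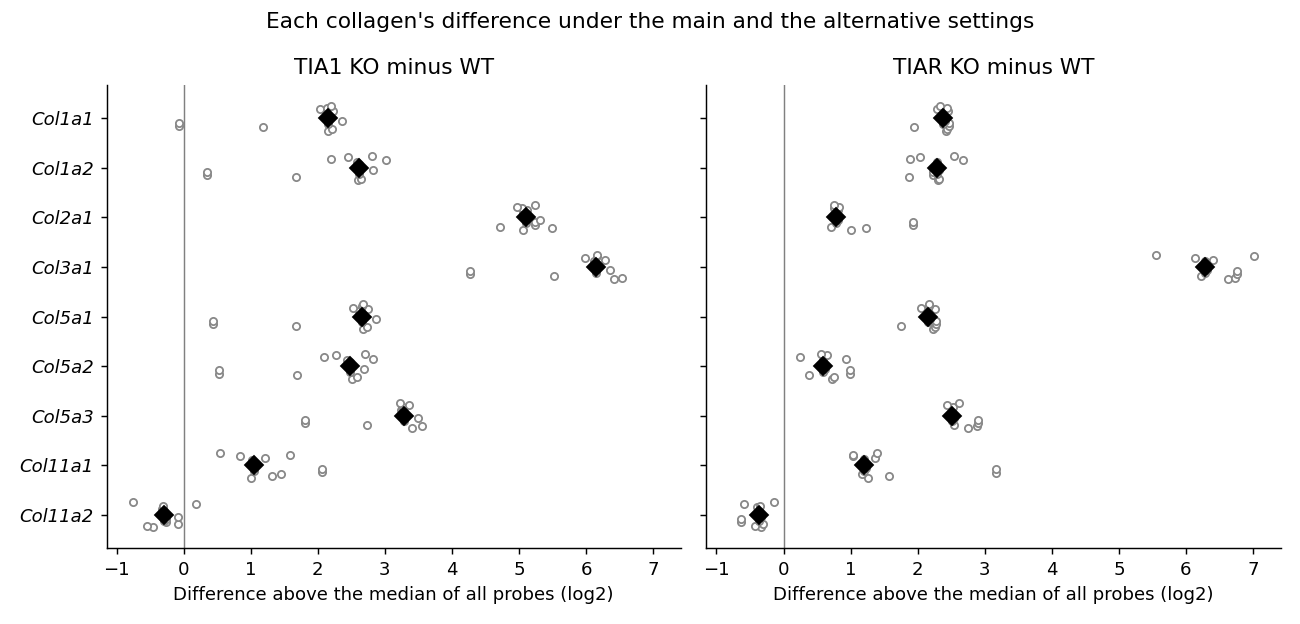
Difference from WT of each fibrillar collagen minus the median difference of all probes (horizontal axis, log2) as reported (black diamonds) and under each alternative way of processing (open circles). Col3a1 stayed at 4.27 or higher in TIA1 KO and 5.55 or higher in TIAR KO MEF, while Col1a1 reached -0.07 in TIA1 KO MEF under the percentile scalings.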

How the data were processed

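Total RNA of 6 samples (2 a group) carried Cy3 label and was hybridized to Agilent SurePrint G3 mouse arrays on 1 slide. The deposited table holds log2 values that the authors made by normexp background correction with an offset of 50, loess and quantile normalization, rounded to 2 decimals; this order comes from the study's methods, and the table correlated with r of 0.9972 to 0.9994 with the same steps run here on the deposited scanner intensity columns. The deposited scanner files also hold quality flags, of which well above background was used. Here the spots of a probe were averaged, and each comparison was fitted to its own 4 arrays with limma 3.58.1 (lmFit and eBayes, R 4.3.3), with Benjamini-Hochberg adjustment over 55681 probes. The fit was tested on simulated data. Each collagen had 1 spot with no saturation or outlier flag; other genes were read from their brightest probe. Lower bounds set a dim group at the higher of its own signal and the lowest signal rated well above background.

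The 9 genes, the lists and the motifs were chosen with earlier results of these data known. Named genes were the collagens, up to 2 called genes with the largest rise and fall in each list and comparison, the 3 nearest profiles of each called collagen, the markers, Tia1, Tial1 and Gapdh; Serpinh1, Pcolce, Lum, Col24a1, Mrc2 and Sox9 among the pathway genes were named after their values were seen. With 2 arrays a group, the number of arrays limits the precision, and p-values measure the spread between these arrays. Other scalings, filters, fits and each array left out in turn were tried. RefSeq promoter windows (GRCm38.p6) were not set against the mm9 probe positions.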

Additional observations from a re-analysis of the deposited data

How the results depend on the processing

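Each array was left out in turn, and 12 other changes of the scaling, the probe filter or the fit were tried; all counts here are of limma calls. Of the values for single collagens, 340 kept direction and side of the threshold, 54 lost the call, 21 gained one and 15 changed sign; the cause was not tested. The 340 include values that were called neither as reported nor after the change, so they are not a count of calls kept. With 2 arrays a group, the spread of an array left alone was taken from the other group. The scaling of processed intensities on spots above background on all arrays was chosen after seeing the data.

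In TIA1 KO against WT MEF, the collagens called numbered 3 after scaling to a common median, 0 after either scaling of the processed intensities, 3 when a fold above 2 was itself tested (treat), and 0 to 7 with an array left out; it was 6 with either normexp offset run from the scanner values and 7 with dim probes removed, with all 3 groups and with an intensity trend. The pathway genes called were 10 higher and 14 lower under the common median, against 16 and 1 as reported, and numbered 0 under both scalings of the processed intensities, 28 with dim probes removed, 29 with all 3 groups fitted together, 8 with treat and 0 to 31 with an array left out. The fits with dim probes removed and with all 3 groups called 9.58% and 6.38% of the probes they tested, against 2.32% as reported. The median of the collagens was 0.99 under the common median and 2.11 to 2.70 with an array left out. Col11a2 turned to 1.72 and 1.94 under the scalings of the processed intensities and ranged from -0.91 to 0.08 with an array left out (0.08 without TIA1 KO replicate 1). The common median moved the median of all probes to -0.68 and the share of calls that were higher from 67.0% (866 higher, 427 lower) to 11.3% (1749 higher, 13720 lower), and the added scaling moved that median to 2.20.

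In TIAR KO against WT MEF, 0 to 3 collagens and 0 to 14 pathway genes were called with an array left out, and 16 pathway genes with treat. The median of the collagens was 1.72 under the common median, 2.39 under the added scaling and 1.87 to 2.24 with an array left out; the share of calls that were higher went from 58.8% to 33.8% under the common median.

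In TIAR KO against TIA1 KO MEF, the collagens called numbered 2 with either normexp offset run from the scanner values, with dim probes removed, with all 3 groups, with an intensity trend and with the mean of all probes, 3 under the common median, and 0 to 2 with an array left out. The pathway genes called numbered 18 with the normexp offset of 50, with dim probes removed and with the trend, 25 under the common median (24 higher and 1 lower, against 6 and 5 as reported), 6 and 2 under the scalings of the processed intensities, 19 with all 3 groups, 3 with treat, 17 with the mean of all probes and 0 to 28 with an array left out; the 25 and the 28 came from fits that called 13.9% and 20.3% of all probes, against 2.26% as reported. The fits with dim probes removed and with all 3 groups called 9.54% and 5.88% of the probes they tested. The median of the collagens was 0.45 under the common median and -0.92 and -0.98 under the scalings of the processed intensities. In these 3 settings the median of all probes moved to 0.63, -1.85 and -1.91. The share of calls that were higher went from 47.2% to 86.9%, 8.27% and 6.57%. Signs turned for Col1a2 (0.85), Col5a1 (0.73) and Col5a3 (0.45) under the common median, for Col11a1 (-0.92 and -0.98) and Col11a2 (-2.39 and -2.45) under the scalings of the processed intensities, for Col1a2 (0.005) and Col3a1 (-0.52) without TIAR KO replicate 2, for Col11a2 (-0.19) without TIAR KO replicate 1, and for Col11a1 (-0.29) and Col11a2 (-0.47) without TIA1 KO replicate 1. With an array left out, the highest values of Col3a1, Col11a1 and Col11a2 were 0.98, 0.80 and 0.52.

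With the replicate number as a block, 0 collagens and 0 pathway genes were called in TIA1 KO against WT MEF. There 7 collagens and 11309 of all 55681 probes had an unadjusted limma p under 0.05. In TIAR KO against WT MEF the block gave 6 and 27 calls, and in TIAR KO against TIA1 KO MEF 0 and 0. In the last of these, 2 collagens and 9564 of all probes had an unadjusted limma p under 0.05. Over all probes, the differences between replicates correlated with r of 0.072, 0.025 and -0.047 between the groups of these comparisons. Such a correlation does not show whether single genes shared a shift by replicate number, which was not tested. Col1a2 was higher on replicate 1 than on replicate 2 in every group, which Col1a1 was not. The SE of Col1a2 in TIA1 KO against WT MEF was 0.34 as reported and 0.22 with the block. Probes near background, among them Col11a1, Col11a2 and the WT spots of Col2a1, limit what can be read from their differences.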
